A study of Mus musculus with 16 samples.

Results

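The insulin-like growth factor (IGF) genes followed here were 6 IGF binding protein genes (Igfbp2, Igfbp3, Igfbp4, Igfbp5, Igfbp6 and Igfbp7), the ligand genes Igf1 and Igf2, and the receptor gene Igf1r. They were chosen by gene name and not by their values, and all 9 were measured among 25674 genes tested. Total RNA from whole homogenised lungs of female mice was hybridised to 16 single-colour Agilent arrays, 1 per sample. In ARF-DTR mice the promoter of Arf, a product of the Cdkn2a locus, drives the gene of the diphtheria toxin (DT) receptor, so that DT can kill cells in which this promoter is active. The groups were 4 ARF-DTR samples at 2 months with no injection, 4 ARF-DTR samples at 12 months given PBS, 4 ARF-DTR samples at 12 months given DT, and 2 samples each of wild type mice at 12 months given PBS or DT. DT was given into the peritoneum at 50 microgram per kg, with an interval of 2 weeks, over 1 month. The wild type mice have no transgene and show what DT does without it. Whether each RNA sample is from its own mouse is not given in the labels, and the p-values then reflect sample spread that may be technical.

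IGF1 and IGF2 are secreted growth factors that act through the receptor tyrosine kinase encoded by Igf1r. The binding proteins hold most IGF outside cells, lengthen its life in tissue and blood, and limit or aid its access to the receptor, and proteases such as PAPP-A free it by cutting them. Several binding proteins, among them those encoded by Igfbp3, Igfbp5 and Igfbp7, are also named as products that senescent cells secrete.

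The arrays filled 2 slides of 8. Slide 1 carried both PBS-treated and 2-month ARF-DTR lungs, 4 of each. On slide 2 were the 4 ARF-DTR samples given DT together with the 4 from wild type mice. The age comparison and the comparisons of DT-treated ARF-DTR with wild type therefore lie within a slide, and DT against PBS in ARF-DTR mice crosses the slides, so the effects of DT and of slide cannot be told apart. The 75th percentile of probe signal, which sets the scale of an array, was 873 to 1088 intensity units on slide 1 and 613 to 725 on slide 2, and 55.6% to 66.9% of probes were well above background. Levels below are log2 signal minus the 75th percentile of the array, so they are relative levels of 1 probe and are not compared between genes. Epithelial markers of the lung, such as Sftpc, Scgb1a1 and Ager, were well above background on 16 of 16 arrays. Signal from the Cdkn2a locus differed by -0.34 with age (adjusted p = 0.534) and by 0.34 with DT in ARF-DTR lungs (adjusted p = 0.365). In whole lung, fewer cells of a type and less RNA per cell cannot be told apart.

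The probes that carry the results are shown by 30 of their 60 bases, since the array design reads most of these genes near the 3′ end of the transcript. Coordinates are those of the array design on the mouse build mm9, with the strand in brackets, and the design gives no exon or UTR annotation. Igfbp2 had a second probe that ends at a stop codon of an open frame, shown whole with the stop codon in capitals. For Igfbp7 the capitals mark AATAAA, the sequence that directs polyadenylation, which 10.061% of all 55681 probes hold and 1 of the 15 member probes holds. The 2 Igf1 probes shown are the most upstream and the most downstream, whose differences with DT have opposite signs.
Igfbp2, A_66_P135391, chr1:72898813-72898842 (+): aggagttcccagttttgacacatgtattta
Igfbp2, A_55_P2056729, chr1:72898677-72898736 (+): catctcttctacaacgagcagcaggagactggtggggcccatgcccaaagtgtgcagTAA
Igfbp5, A_52_P281702, chr1:72904859-72904888 (-): cacatcacatattactgtagctctctatag
Igfbp7, A_55_P2018611, chr5:77778273-77778302 (-): ttaaacaaaacaAATAAAattcttatcaca
Igfbp3, A_52_P253179, chr11:7106624-7106653 (-): gcagttttccaaaaacacagatttcttttc
Igf1, A_55_P2085979, chr10:87378456-87378485 (+): aaccattaaaaacatgccaccaagaccttc
Igf1, A_55_P2085974, chr10:87399581-87399610 (+): ctcctgattgtatttgaagtggttattcaa

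Igfbp2 and Igfbp5 are neighbours on chromosome 1, in opposite orientation. Their 3′ probes lie 5956 bases apart, with no other protein-coding gene listed between them. Both were higher at 12 months, so the 250 bases before their starts are shown, from RefSeq on GRCm38.p6, for the first of 2 listed starts of Igfbp2 and the only listed start of Igfbp5. Capitals mark the GC box GGGCGG, searched on both strands together with the TATA box TATAAA. The Igfbp2 stretch holds 3 GC boxes, which begin at -113, -98 and -37 from the start, and the Igfbp5 stretch holds 0. Neither stretch holds TATAAA. Over 32851 promoters of the same length, 32.742% held the GC box and 12.368% the TATA box.
Igfbp2, chr1:72824230-72824479 (+): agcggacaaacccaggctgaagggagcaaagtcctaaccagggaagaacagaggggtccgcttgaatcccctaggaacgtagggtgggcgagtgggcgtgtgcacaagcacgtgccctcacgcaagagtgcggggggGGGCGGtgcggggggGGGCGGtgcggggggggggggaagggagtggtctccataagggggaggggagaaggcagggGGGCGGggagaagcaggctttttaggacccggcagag
Igfbp5, chr1:72874866-72875115 (-): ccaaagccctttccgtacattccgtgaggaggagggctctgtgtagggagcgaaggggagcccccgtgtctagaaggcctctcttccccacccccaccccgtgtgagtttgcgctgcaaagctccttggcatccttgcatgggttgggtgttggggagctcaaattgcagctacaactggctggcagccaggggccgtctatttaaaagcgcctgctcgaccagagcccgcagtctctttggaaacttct

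Over the 16 arrays the members varied by unequal amounts. Igfbp7 had the widest range, with a log2 level from 0.15 to 2.21 and an SD of 0.72 over the arrays. Igfbp2 ranged from 3.42 to 5.08 (SD 0.46), Igfbp3 from -0.08 to 1.47 (SD 0.42) and Igfbp5 from 2.75 to 4.02 (SD 0.37). Igf1r (1.73 to 2.22, SD 0.17) and Igfbp6 (5.61 to 6.41, SD 0.19) varied least. In all, 8 of the 9 members were well above background on 16 of 16 arrays, and Igf2, whose expression is high in the fetus and low in most adult mouse tissues, was so on 12.

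**Figure D1:**
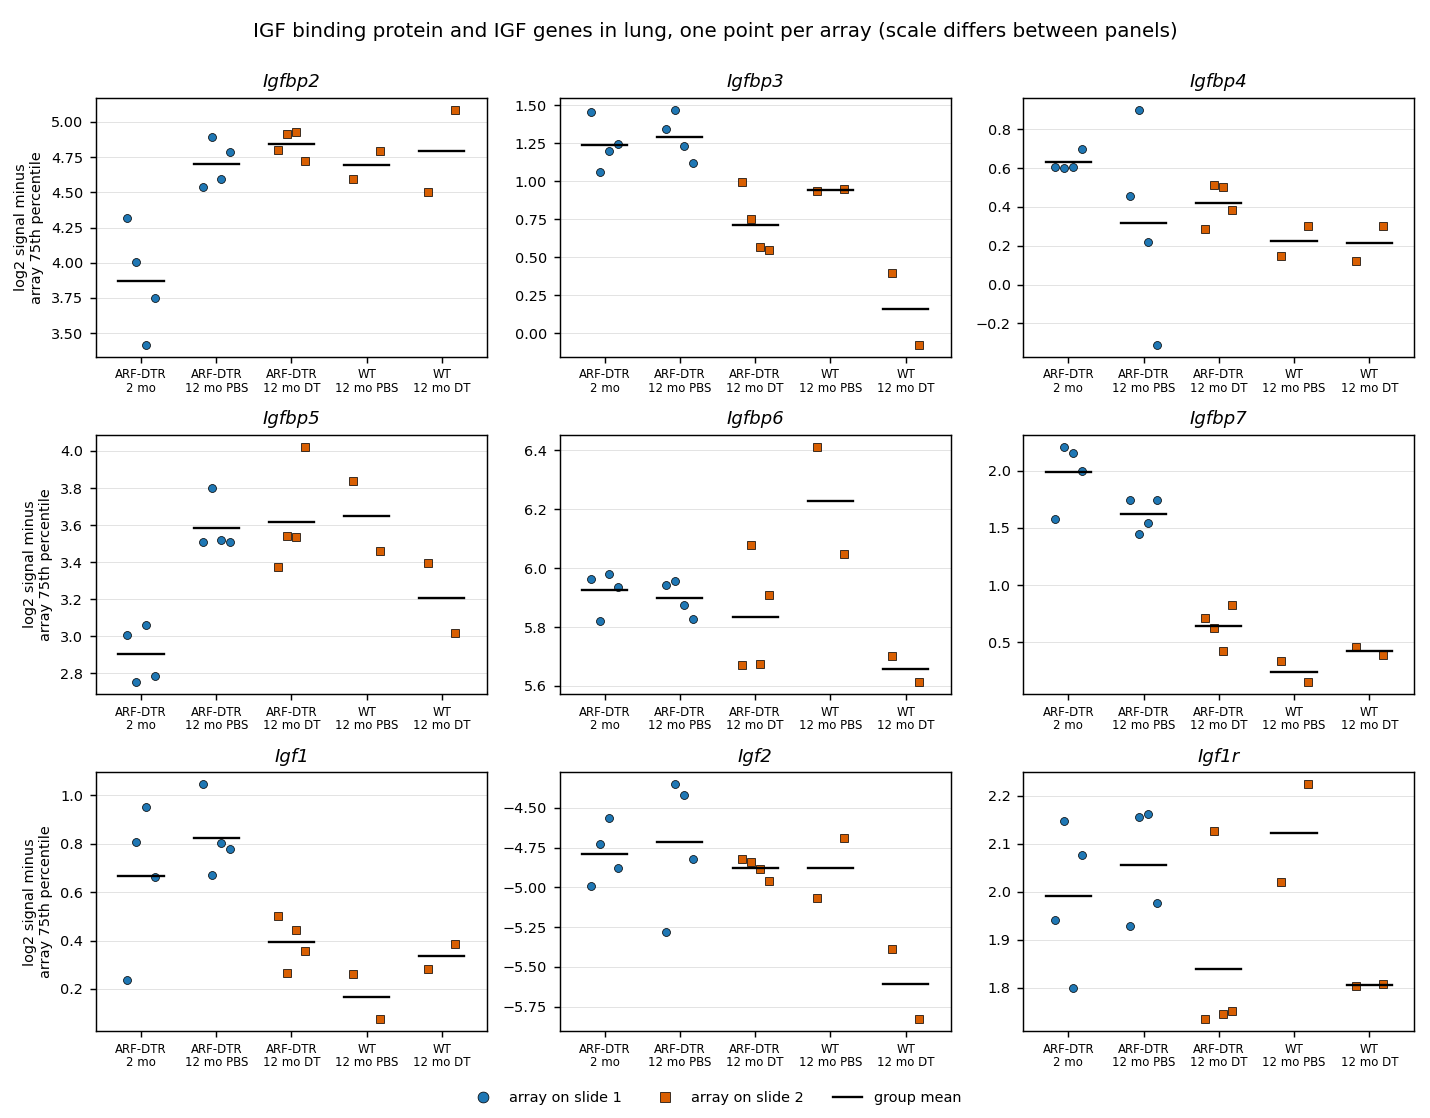
Log2 level (signal minus the 75th percentile of the array) of each of the 9 genes, with 1 point per array, the group mean as a bar, and the slide by colour and shape. Igfbp2 and Igfbp5 were lower in the 2-month samples than in the 12-month PBS samples of the same slide, and Igfbp7 was between 1.44 and 2.21 on slide 1 and between 0.15 and 0.82 on slide 2.

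With age in ARF-DTR lungs, Igfbp2 and Igfbp5 were higher at 12 months and the other 7 members did not pass the test. Igfbp2 encodes a binding protein that is abundant in fetal life and in serum, and its level rose by 0.83 ± 0.17 (log2, SE), a 1.78-fold difference. Igfbp5, which encodes a binding protein held in extracellular matrix, rose by 0.68 ± 0.14, a 1.6-fold difference. The question here is what aging does to the ARF-DTR lung. Only the older mice had been injected, so age and injection cannot be told apart.

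The 2-month samples had Igfbp2 levels of 4.32, 4.004, 3.42 and 3.75, and the 12-month PBS samples had levels of 4.54, 4.89, 4.60 and 4.78. Every 12-month sample lay above every 2-month sample. The difference passed over all genes (limma, adjusted p = 0.0136), and the second Igfbp2 probe gave the same difference, 0.83 ± 0.15 (adjusted p = 0.00792 over 37036 probes, of which 5.14% passed). For Igfbp5 the 2-month samples had levels of 3.01, 2.75, 3.06 and 2.78, and the 12-month PBS samples had levels of 3.51, 3.80, 3.52 and 3.51. These groups did not overlap either, and the adjusted p was 0.0147.

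Of the 9 members, 2 passed with age, where 6.15% of all genes tested passed and 2.73% passed as higher. All genes split into 701 higher and 877 lower, and into 529 and 1457 with median scaling. The median difference of the members was 0.06, beside -0.03 over all genes. Groups that did not overlap were seen for the same 2 members and for 13% of all genes. With the 8 arrays of this comparison fitted alone, Igfbp2 had an adjusted p of 0.052 and 1 member passed. Igfbp7, which encodes a secreted protein that binds IGF weakly, differed by -0.37 ± 0.13 (adjusted p = 0.13). It passed when arrays were scaled by their median (-0.46, adjusted p = 0.0333) and without 2-month replicate 1 (-0.50, adjusted p = 0.024).

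**Figure D2:**
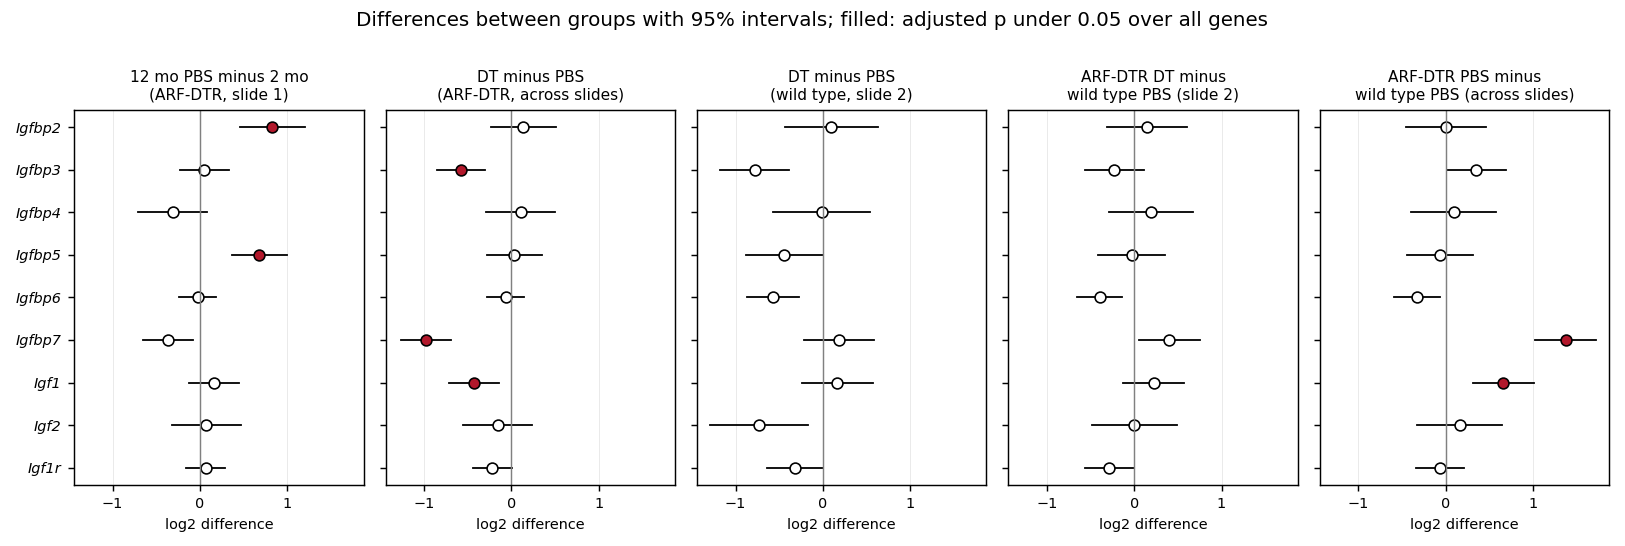
Log2 differences of the 9 genes in 5 comparisons, with 95% intervals from the limma fit; filled points had an adjusted p under 0.05 over all genes. Igfbp2 and Igfbp5 stand apart with age, Igfbp3, Igfbp7 and Igf1 with DT in ARF-DTR mice, and none of the 9 passed in wild type mice or between DT-treated ARF-DTR and PBS-treated wild type mice.

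The other 12-month groups extended this for Igfbp2 and less so for Igfbp5. DT-treated ARF-DTR samples had Igfbp2 levels of 4.80, 4.92, 4.93 and 4.72, wild type PBS samples 4.60 and 4.79, and wild type DT samples 4.50 and 5.08. All 12 samples from 12-month mice were therefore above all 4 samples from 2-month mice. The 2-month samples were all uninjected ARF-DTR samples on the slide of the 12-month ARF-DTR PBS samples. For the other 12-month groups the comparison thus crosses the slides, and for wild type samples it crosses the genotypes as well. How many of all genes split in this way was not counted. Neighbours in the order of the 12-month group means overlapped (4.84, 4.79, 4.70 and 4.69). For Igfbp5 the DT-treated ARF-DTR samples had levels of 3.37, 3.54, 3.54 and 4.02, the wild type PBS samples 3.84 and 3.46, and the wild type DT samples 3.39 and 3.02. The last of these lay inside the range of the 2-month samples, which reached 3.06.

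DT-treated ARF-DTR lungs also differed from 2-month lungs in both genes. The 2-month samples are the same as in the age comparison, so this is not separate support for it. Igfbp2 was higher by 0.97 ± 0.17 (adjusted p = 0.00122) and Igfbp5 by 0.72 ± 0.14 (adjusted p = 0.00264), while Igfbp3 fell by 0.52 on the log2 scale (SE 0.13, adjusted p = 0.0079) and Igfbp7 by 1.34 (SE 0.13, adjusted p = 2.04e-05). Igf1 differed by -0.27 ± 0.13 (adjusted p = 0.137), and passed without 2-month replicate 1 (-0.42, adjusted p = 0.00799). The 4 of 9 members that passed stand beside 30.7% of all genes in a comparison that crosses the slides. Against 12-month PBS samples, DT moved Igfbp2 by 0.14 (95% interval -0.24 to 0.51) and Igfbp5 by 0.03 (-0.28 to 0.35), and neither passed. The comparisons with age and with DT share the 12-month PBS samples.

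In ARF-DTR lungs given DT, Igfbp7, Igfbp3 and Igf1 were lower than in those given PBS. Igfbp7 fell by 0.98 ± 0.13 on the log2 scale, a 1.97-fold difference, and Igfbp3 fell by 0.58 ± 0.13, a 1.49-fold difference. Igfbp3 encodes the main carrier of IGF in blood. The brightest Igf1 probe fell by 0.43 ± 0.13, a 1.35-fold difference, while the other Igf1 probes did not. This comparison asks what changes when cells with an active Arf promoter are exposed to DT, and slide goes with DT in it.

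For Igfbp7 the PBS samples had levels of 1.75, 1.44, 1.55 and 1.74, and the DT samples had levels of 0.71, 0.62, 0.42 and 0.82, with an adjusted p of 0.000402. Every DT sample lay below every PBS sample. For Igfbp3 the PBS samples had levels of 1.34, 1.47, 1.23 and 1.12, and the DT samples had levels of 0.99, 0.75, 0.57 and 0.55, again with no overlap (adjusted p = 0.00575). A second Igfbp3 probe, which the design assigns to another transcript, differed by -0.75 ± 0.25 (adjusted p = 0.0429 over probes, of which 25.8% passed), but it was well above background on 3 of 4 PBS samples and 1 of 4 DT samples.

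The 3 of 9 members that passed stand beside 29.2% of all genes in this comparison, of which 4057 were higher and 3451 lower. With normexp the split was 7193 higher and 2531 lower. With arrays scaled by their median it was 8697 higher and 1759 lower, and the median of all genes moved from 0.00 to 0.18. Under that scaling Igf1 did not pass (-0.25, adjusted p = 0.0919), and Igfbp3 and Igfbp7 remained lower under all 19 alternatives run for them. Non-overlapping groups were seen for 3 of the 9 members and 30.5% of all genes. The median difference of the members was -0.16, beside 0.00 over all genes.

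Levels of Igfbp7 split by slide. The 2-month samples, also on slide 1, had levels of 1.58, 2.21, 2.15 and 2.00, and the wild type samples on slide 2 had levels of 0.33 and 0.15 with PBS and 0.46 and 0.39 with DT. All 8 samples of slide 1 were thus above all 8 samples of slide 2, the PBS-treated wild type included. The share of all genes that split between the slides in this way was not counted. Compared within slide 2, DT-treated ARF-DTR differed from wild type PBS by 0.40 ± 0.16 (adjusted p = 0.163) and from wild type DT by 0.22 ± 0.16 (adjusted p = 0.572). Across the slides, PBS-treated ARF-DTR lungs were higher than PBS-treated wild type lungs by 1.38 ± 0.16 (adjusted p = 0.000219).

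Igfbp3 split by slide as well. The 2-month samples had levels of 1.45, 1.06, 1.19 and 1.24, and all 8 samples of slide 1 (1.06 to 1.47) lay above all 8 of slide 2 (-0.08 to 0.99). Here too, the share of all genes with such a split was not counted. On slide 2 the wild type PBS samples had levels of 0.94 and 0.94, inside the range of the DT-treated ARF-DTR samples. The wild type DT samples had levels of 0.40 and -0.08, below every other sample. Within slide 2, DT-treated ARF-DTR differed from wild type PBS by -0.23 ± 0.16 (adjusted p = 0.427) and from wild type DT by 0.55 ± 0.16 (adjusted p = 0.115). The latter passed with no filter on dim probes (adjusted p = 0.0446). The mean of the gene's probes gave 0.87 (adjusted p = 0.0474), but it takes in the second probe, which was well above background on 1 of 4 DT-treated ARF-DTR samples and 0 of 2 wild type DT samples. In these 2 comparisons 0 of 9 members passed, beside 5.55% and 0.923% of all genes, and 3 members had an unadjusted p under 0.05 in each, as did 5718 and 4016 of the 25674 genes.

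Igf1, the ligand gene whose product is made in the liver and locally in many tissues, was read by 5 probes that gave different answers. The brightest, A_55_P2085979, is assigned by the design to the transcript NM_184052, and the other 4 are assigned to NM_010512 and lie at least 15045 bases downstream. Probes A_55_P2085984 and A_55_P2031631 overlap by 40 bases, so they are not separate readings of the gene. All 5 were well above background on 16 of 16 arrays.

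At the brightest probe the 2-month samples had levels of 0.24, 0.81, 0.95 and 0.66, the 12-month PBS samples 1.05, 0.67, 0.80 and 0.78, and the DT-treated ARF-DTR samples 0.50, 0.27, 0.45 and 0.36. The DT samples lay below every 12-month PBS sample, and the adjusted p was 0.0267. The wild type samples, on the same slide as the DT samples, had levels of 0.26 and 0.07 with PBS and 0.28 and 0.39 with DT. DT-treated ARF-DTR differed from wild type PBS by 0.23 ± 0.16 (adjusted p = 0.449), and PBS-treated ARF-DTR was higher than PBS-treated wild type, across the slides, by 0.66 ± 0.16 (adjusted p = 0.0122).

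The 4 downstream probes differed with DT in ARF-DTR lungs by 0.28 to 0.55, none of which passed (adjusted p from 0.21 to 0.406 over probes). For A_55_P2085984 the PBS samples had levels of 0.07, -0.15, -0.55 and 0.79 and the DT samples 0.88, -0.29, 0.69 and 0.69, so the groups overlapped. With the mean of the kept probes in place of the brightest, the Igf1 difference with DT was 0.24 (adjusted p = 0.427), the opposite direction. The call at the brightest probe was also lost without PBS replicate 1 (adjusted p = 0.0767), PBS replicate 3 (0.0518), DT replicate 2 (0.0597) or DT replicate 4 (0.063).

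With age the probes diverged as well. The brightest differed by 0.16 ± 0.13, and the most distal, A_55_P2085974, by -0.87 ± 0.24 (adjusted p = 0.0523 over probes). At this distal probe the 2-month samples had levels of 1.12, 0.65, 0.78 and 0.67 and the 12-month PBS samples 0.03, 0.07, -0.42 and 0.04, with no overlap. In wild type mice the overlapping pair of probes differed with DT by 1.28 ± 0.46 and 1.28 ± 0.48, with wild type DT levels of 1.45 and 0.19 at the first of them against -0.58 and -0.35 with PBS, and neither passed (adjusted p = 0.249 and 0.274, where 0.2% of probes passed).

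**Figure D3:**
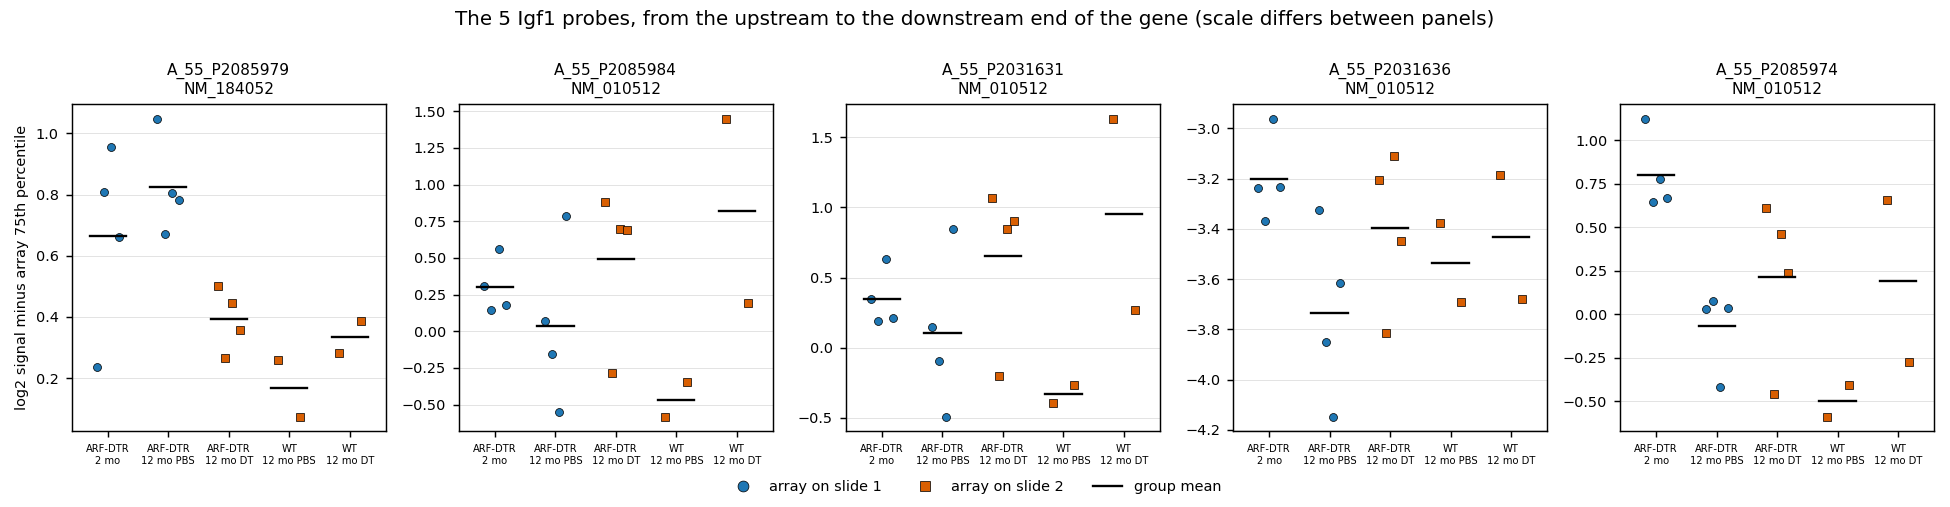
Log2 levels at the 5 Igf1 probes, with 1 point per array, group means as bars, and the slide by colour and shape; probes run from upstream to downstream and each panel has its own scale. The DT-treated ARF-DTR samples lie below the PBS samples at the first probe (-0.43) and have higher means at the other 4 (0.28 to 0.55).

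In wild type lungs DT changed no member past the threshold: 0 of 9 passed, beside 0.179% of all genes. At an unadjusted p under 0.05 there were 4 members and 3267 genes. These were Igfbp3 (-0.78 ± 0.18, adjusted p = 0.103), Igfbp6 (-0.57 ± 0.14, 0.118), Igfbp5 (-0.44 ± 0.20, 0.392) and Igf2 (adjusted p = 0.249). For Igf2 no size is given, since its probe was well above background on 0 of 2 wild type DT samples and 1 of 2 wild type PBS samples. With 2 samples against 2, groups did not overlap for 7 of 9 members and for 43.6% of all genes. Igfbp3 passed without wild type DT replicate 1 (-1.02, adjusted p = 0.0483), where the remaining DT sample is assumed to vary like the other groups.

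The response to DT differed between the genotypes for 1 of 9 members, Igfbp7, beside 2.11% of all genes. All genes split into 219 higher and 322 lower, into 336 and 217 with median scaling, and into 1646 and 388 with normexp. Its DT difference was -0.98 in ARF-DTR and 0.18 ± 0.19 in wild type mice, which gave a difference of -1.16 ± 0.23 (adjusted p = 0.0252). The ARF-DTR side of this value crosses the slides and the wild type side does not, so slide does not cancel. The wild type side also rests on titles with which the free-text descriptions disagree. The call was lost without wild type PBS replicate 1 (adjusted p = 0.0521), wild type PBS replicate 2 (0.095) or wild type DT replicate 2 (0.0684). For Igfbp3 the genotypes' DT differences, -0.58 and -0.78, differed by 0.21 (95% interval -0.27 to 0.69, adjusted p = 0.621).

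Between the PBS-treated genotypes, 2 of 9 members passed, Igfbp7 and Igf1, both higher in ARF-DTR, beside 23.6% of all genes, 10.9% as higher and 12.7% as lower. All genes split into 2799 higher and 3260 lower, into 1938 and 4347 with median scaling, into 1851 and 6080 with normexp, and into 2667 and 2126 with quantile normalization. The comparison crosses the slides. Igf1 did not pass there with the mean of its probes (0.36, adjusted p = 0.336) or without wild type PBS replicate 2 (0.56, adjusted p = 0.109).

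The remaining members passed in none of the 8 comparisons. Igfbp6, whose product prefers IGF2, lay between 5.82 and 5.98 in the 2-month samples and between 5.83 and 5.95 in the 12-month PBS samples, a narrow spread that both groups shared. Its highest group mean was in wild type PBS, with samples at 6.41 and 6.05, and the DT-treated ARF-DTR samples (5.67, 6.08, 5.68 and 5.91) overlapped them. It differed from wild type PBS by -0.33 ± 0.12 in PBS-treated ARF-DTR (adjusted p = 0.0627) and by -0.40 ± 0.12 in DT-treated ARF-DTR (adjusted p = 0.0719). It passed the former with median scaling (-0.42, adjusted p = 0.027), with trended, robust variances (0.0427) and without wild type PBS replicate 2 (-0.51, 0.0389), and the latter with trended, robust variances (0.048) and without DT replicate 2 (-0.48, 0.031).

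Igfbp4, whose product is the main substrate of PAPP-A, had 2-month levels of 0.61, 0.60, 0.61 and 0.70 and 12-month PBS levels of 0.45, 0.90, 0.22 and -0.31. The 12-month PBS samples were the most spread of any group for this gene (SD 0.50 against 0.05 at 2 months), and the age difference was -0.31 ± 0.18 (adjusted p = 0.374). DT-treated ARF-DTR samples lay between 0.28 and 0.51, and wild type samples between 0.12 and 0.30.

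Igf1r, the receptor gene, had group means of 1.99 at 2 months, 2.06 and 1.84 in 12-month ARF-DTR with PBS and DT, and 2.12 and 1.80 in wild type with PBS and DT. Ordered by mean, each group overlapped the next, and wild type PBS (2.02 and 2.22) lay above wild type DT (1.80 and 1.81). Its DT difference was -0.22 ± 0.10 in ARF-DTR (adjusted p = 0.135) and -0.32 ± 0.15 in wild type (adjusted p = 0.394). Of the 4 DT-treated ARF-DTR samples, 3 were at 1.73 to 1.75 and replicate 2 was at 2.13. Without it the difference was -0.31 and passed (adjusted p = 0.0228).

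Igf2 was near background. Its probe was well above background on 4 of 4 samples at 2 months, 3 of 4 with PBS and 4 of 4 with DT in ARF-DTR mice, 1 of 2 in wild type PBS and 0 of 2 in wild type DT, where the signal is only an upper bound. The samples of the 3 ARF-DTR groups lay between -5.28 and -4.35 and overlapped. With the wild type DT samples raised to the lowest signal that counts as well above background, the DT-treated ARF-DTR mean was 1.02-fold higher. This lower bound was itself not tested. The difference in measured signal between these groups did not pass (limma, adjusted p = 0.135). No such bound follows for wild type PBS, where 1 of 2 samples was well above background. After normexp background correction the Igf2 difference with DT in ARF-DTR was 0.30 (adjusted p = 0.0154) in place of -0.16.

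Of the other genes of the IGF axis, 34 of 37 listed genes were measured. With age 0 were higher and 4 lower, beside 2.73% and 3.42% of all genes, and the median of the list was -0.15 beside -0.03 over all genes. Among the relatives of the binding proteins, Ccn4 (Wisp1 on the array) fell by 1.03 ± 0.13 (adjusted p = 0.000665) and Ccn5 (Wisp2) by 0.60 ± 0.11 (0.00557). Both encode secreted CCN proteins, which carry an IGF binding protein domain. Among the signal genes, Irs1, an adaptor of the IGF1 and insulin receptors, fell by 0.52 ± 0.08 (0.00207). Pik3r1, a regulatory subunit of PI3-kinase, fell by 0.30 ± 0.06 (0.0117). None of the 4 receptor genes (Igf2r, Insr, Insrr and Ghr) and none of the 4 protease and inhibitor genes passed with age.

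With DT in ARF-DTR lungs, 4 of the 34 were higher and 5 lower, and 25 did not pass, beside 15.8% and 13.4% of all genes. Lower were Ccn1 (Cyr61; -0.79 ± 0.17, adjusted p = 0.00499), Ccn3 (Nov; -0.67 ± 0.19, 0.0172), the binding protein protease gene Pappa (-0.51 ± 0.13, 0.0103), the adaptor gene Irs4 (-0.51 ± 0.10, 0.00252) and Igf2bp2, which encodes a protein that binds Igf2 mRNA (-0.47 ± 0.07, 0.000736). Higher were H19, the imprinted neighbour of Igf2 (0.86 ± 0.17, 0.00313), Igfals, whose product joins IGF and its carrier in serum (0.63 ± 0.20, 0.0326), and the adaptor genes Grb10 (0.31 ± 0.10, 0.0424) and Irs2 (0.20 ± 0.07, 0.0435). With median scaling 14 of the 34 passed, where 10456 of the 25674 genes did. Without DT replicate 4, 5 of the 34 and 5386 of all genes passed.

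Within slide 2, 4 of the 34 differed between DT-treated ARF-DTR and PBS-treated wild type lungs, where 2.14% of all genes were higher and 3.42% lower. Over all genes this is 549 higher and 877 lower, and with median scaling it was 899 and 505. These were Ccn1 (-0.997 ± 0.21, adjusted p = 0.0191) and Igf2bp2 (-0.36 ± 0.09, 0.0315), which were lower, and H19 (0.89 ± 0.21, 0.029) and Ccn2 (Ctgf; 0.68 ± 0.16, 0.03), which were higher. Ccn1 was also lower than in DT-treated wild type lungs (-1.04 ± 0.21, adjusted p = 0.0394), and was the only 1 of the 34 to pass there, beside 0.923% of all genes. With the arrays of slide 2 or of the compared groups fitted alone, none of these passed. With DT in wild type mice 0 of the 34 passed, beside 0.179% of all genes. Pappa differed by -0.51 ± 0.18 there (adjusted p = 0.245), beside -0.51 ± 0.13 in ARF-DTR mice. The genotypes' DT responses differed for Irs4 alone of the 34 (-0.72 ± 0.17, adjusted p = 0.0437), beside 2.11% of all genes. This call was lost with median scaling, among other settings.

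DT-treated 12-month against 2-month ARF-DTR lungs gave 2 higher and 14 lower of the 34, beside 14.8% and 15.9% of all genes. Over all genes this is 3787 higher and 4092 lower, with median scaling it was 4876 and 2556, and with normexp background correction 6557 and 3213. The lower ones included 3 of the 4 protease and inhibitor genes: Pappa (-0.68 ± 0.13, adjusted p = 0.00163), Stc2 (-0.50 ± 0.14, 0.0134) and Stc1 (-1.17 ± 0.41, 0.0465). Stc1 and Stc2 encode stanniocalcins, which block PAPP-A. Also lower were Igf2bp1 (-1.19 ± 0.23, 0.0021), Ccn4 (-0.97 ± 0.13, 0.000204), Ccn5 (-0.80 ± 0.11, 0.000172), Irs1 (-0.63 ± 0.08, 0.000128), the growth hormone receptor gene Ghr (-0.25 ± 0.08, 0.0309) and Mtor (-0.30 ± 0.08, 0.0159). The rest of the lower ones were Ccn1 (-0.80), Ccn3 (-0.56), Igf2bp2 (-0.56), Irs4 (-0.36) and Pik3r1 (-0.32), with adjusted p from 0.00012 to 0.0375. The higher ones were H19 (1.05 ± 0.17, 0.000665) and Ccn2 (0.37 ± 0.13, 0.048). Between the PBS-treated genotypes 3 were higher in ARF-DTR, Irs4 (0.76 ± 0.12, 0.00131), Ccn2 (0.55 ± 0.16, 0.0272) and Mtor (0.37 ± 0.10, 0.0197), and Akt2 was lower (-0.30 ± 0.09, 0.0272). That comparison crosses the slides, and 10.9% of all genes were higher in it and 12.7% lower.

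**Figure D4:**
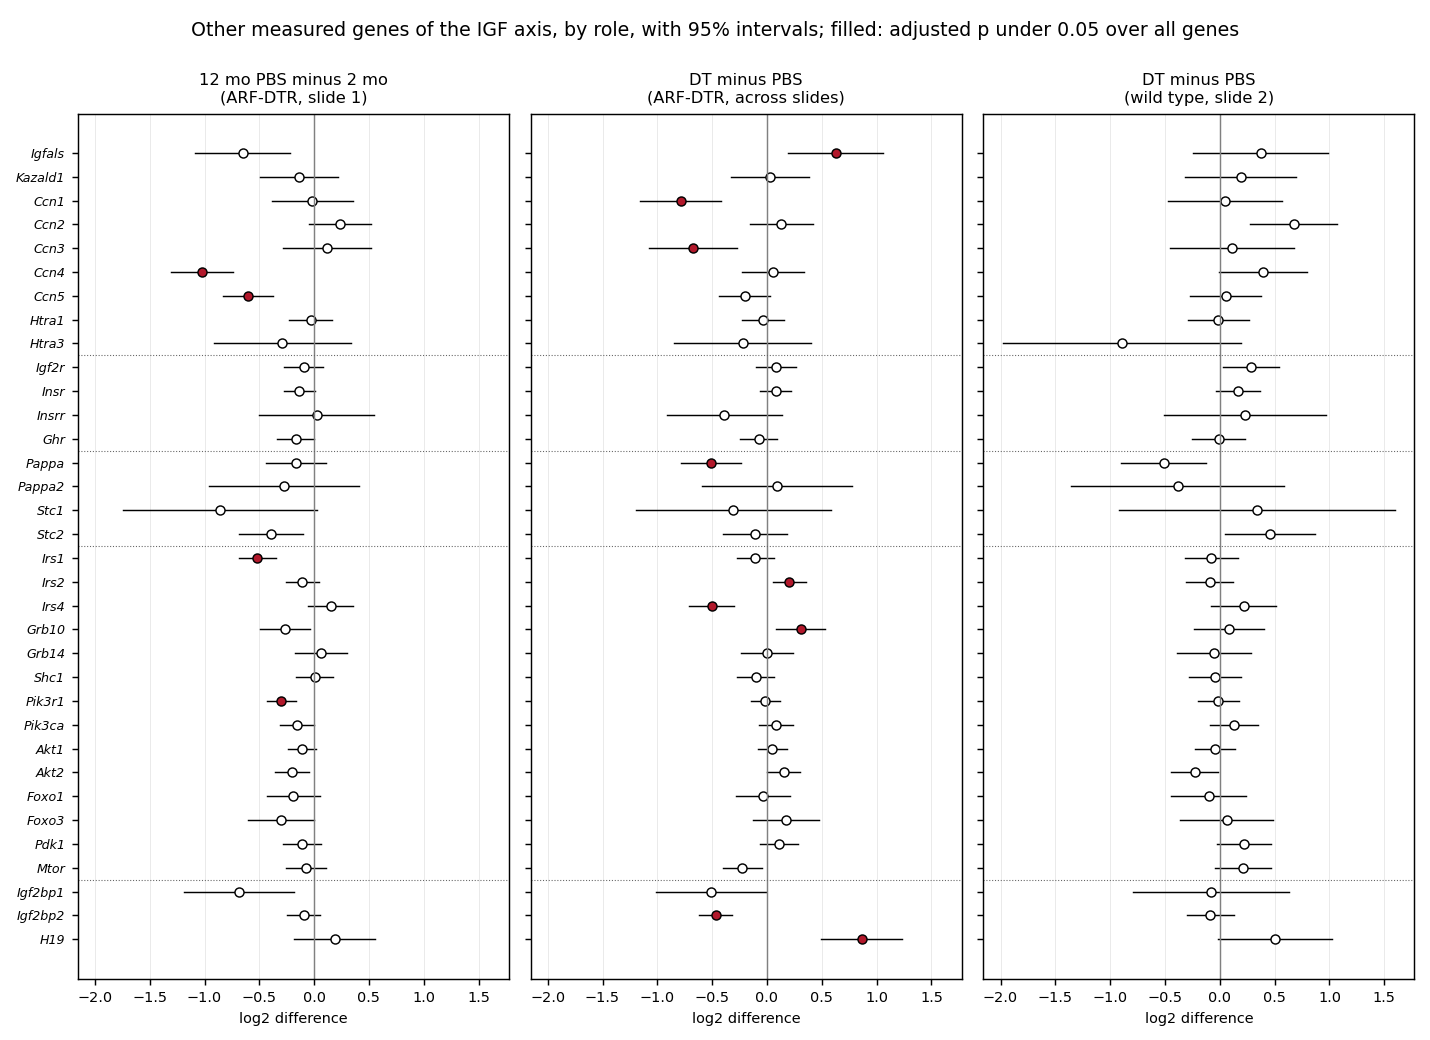
Log2 differences with 95% intervals of the 34 measured IGF axis genes that are not among the 9 members, grouped by role from top to bottom (binding protein relatives, receptors, proteases and inhibitors, signal genes, Igf2 mRNA binding proteins with H19); filled points had an adjusted p under 0.05 over all genes. With age 4 passed, all lower; with DT in ARF-DTR mice 9 passed in both directions; in wild type mice 0 passed.

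Markers of cell types moved in the same comparisons. Of all genes, 2.73% were higher and 3.42% lower with age. With DT in ARF-DTR lungs, a comparison that crosses the slides, 15.8% were higher and 13.4% lower. With age, 4 of 6 mesothelial markers were higher (Wt1, Msln, Upk3b and Bnc1), and their summed level, in multiples of the 75th percentile of the array, was 23.8 to 37.3 at 2 months and 37.7 to 47.1 at 12 months with PBS. It was 60.5 to 104 in DT-treated ARF-DTR, 52.4 to 66.7 in wild type PBS and 50.1 to 61.3 in wild type DT samples. This sum was thus higher in every 12-month group than at 2 months, as Igfbp2 was. In ARF-DTR lungs the mesothelial sum was higher with DT than with PBS, without overlap, while Igfbp2 differed by 0.14 and did not pass. The interstitial macrophage sum was also higher in every 12-month group (lowest value 83.2) than at 2 months (highest value 78.8). For both sums the groups on slide 2 were compared with 2-month samples across the slides. Of 8 fibroblast markers 3 were lower with age (Col1a1, Col1a2 and Col3a1), with summed levels of 139 to 172 at 2 months and 94.6 to 127 at 12 months. Also lower with age were 3 of 7 endothelial markers (Pecam1, Cdh5 and Kdr; 170 to 188 at 2 months, 159 to 200.1 at 12 months) and 1 of 6 smooth muscle and pericyte markers (Pdgfrb; 117 to 247 and 110 to 140), and 1 of 5 interstitial macrophage markers was higher. With DT in ARF-DTR lungs, 5 of 6 smooth muscle and pericyte markers were lower (summed level 110 to 140 with PBS, 72.0 to 85.5 with DT), and 3 of 4 ciliated cell markers were lower (16.2 to 17.9 and 11.3 to 16.3). Higher with DT were 6 of 6 alveolar type 2 markers (959 to 1077 and 1337 to 1545), 4 of 5 interstitial macrophage markers (83.2 to 94.9 and 116 to 149), 3 of 5 alveolar macrophage markers (212 to 348 and 339 to 459), 3 of 6 alveolar type 1 markers (211 to 218 and 226 to 238), 2 of 6 mesothelial markers, 1 of 8 fibroblast markers and 1 of 2 measured lymphatic endothelial markers. Of 5 atrial muscle markers 1 was lower, and of 3 club cell markers 1 passed in each direction. Of 7 endothelial markers 1 passed in each direction (159 to 200.1 with PBS, 157 to 210.2 with DT). Wild type samples given PBS and DT had summed levels of 120 to 125 and 89.2 to 94.0 for smooth muscle and pericytes and 96.1 to 107 and 120 to 143 for interstitial macrophages. In the same order, wild type samples had 247 to 267 and 353 to 496 for alveolar macrophages and 20.2 to 22.1 and 17.2 to 19.3 for ciliated cells. For alveolar type 1 cells the wild type sums went the other way from ARF-DTR, with 236 to 260 and 222 to 225. For alveolar type 2 cells their sums were 1199 to 1367 with PBS and 1219 to 1418 with DT. The wild type PBS samples, on slide 2, thus lay above every ARF-DTR PBS sample for that list. No list held a marker that passed with DT in wild type mice, beside 0.179% of all genes. The part of these cell types in the differences of the IGF genes was not tested.

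For the 3 members that varied most, the genes with the most similar pattern were those with the smallest root mean square difference of log2 levels over the 16 arrays, each gene centred on its mean. For Igfbp7 these were Smg8 (0.189), Serpinb6e (0.220) and Adra2b (0.233). For Igfbp2 they were Il2ra (0.186), Lat (0.218) and Ly6g5b (0.219), and for Igfbp3 they were Sp6 (0.208), Taf1a (0.209) and Cdkn2b (0.209). These values are descriptions over arrays that share 2 slides.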

How the data were processed

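Gene expression was measured on Agilent 8 x 60K arrays (design on mm9) with Feature Extraction 10.10.1.1, per the submitters' processing notes. The deposited scanner files hold intensity values per spot, from which gProcessedSignal (background-subtracted, per the file headers) was used after control and outlier spots (105 to 171 per array) were left out. That log2 signal, scaled by subtracting the array's 75th percentile, lay within 0.1 of the authors' deposited log2 values for 100% of probes. Titles gave the groups. The free-text description disagrees with the title for wild type PBS replicate 1, where it mentions DT, and does not mention DT for wild type mice titled as given DT.

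Probes well above background on at least 4 arrays were kept (37036), and the brightest stood for each gene. Tests used limma 3.58.1 in R 4.3.3, with all 16 arrays, group means, moderated variances, two-sided, and Benjamini-Hochberg adjustment over 25674 genes at 0.05. Member probes were also tested over all kept probes. Values after ± are SE of the fit, and SD where so named. Slide could not be a term, since each group lies on 1 slide. Alternatives changed scaling, background, filter, probes and arrays. The members, gene lists, comparisons and rule for named genes (all members, axis genes that passed, the 3 most similar genes) were chosen with earlier results of these data known. The fit was checked on simulated data. 1 gene of the axis list is not reported here.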

Additional observations from a re-analysis of the deposited data

Results flagged for a closer look

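In 27 groups of 4 samples, 3 held a sample far from the others by Dixon's test at the 95% level, where chance gives about 1 in 20. Igf1r in DT-treated ARF-DTR replicate 2 was at 2.13, with the other samples at 1.73 to 1.75 (gap over range 0.958). Igfbp4 at 2 months in replicate 4 was at 0.70, with the others at 0.60 to 0.61 (0.943). Igfbp5 in 12-month PBS replicate 2 was at 3.80, with the others at 3.51 to 3.52 (0.964), and Igfbp5 was higher with age without that sample too.

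The DT response of Igfbp7 differed between ARF-DTR and wild type mice by -1.16 by the interaction test (adjusted p = 0.0252). The wild type PBS samples (0.33 and 0.15) were already below every ARF-DTR PBS sample (1.44 to 1.75), and these groups lie on different slides, so slide and genotype cannot be told apart.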

How the results depend on the processing

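Of the members' results, 1256 values kept direction and call over the alternatives, 57 uncalled values moved, 13 became called, 12 lost their call and 4 reversed. Most member results were uncalled in the main fit, so a kept call was mostly the lack of one. The authors' deposited values, among the alternatives, hold nearly the same signal as the main fit, so their likeness was fixed in advance. The reversals were Igf1 with DT in ARF-DTR with the mean of probes (0.24) and, after normexp background correction, Igf2 with DT in ARF-DTR (0.30), DT-treated against 2-month (0.34, adjusted p = 0.00704) and between PBS-treated genotypes (-0.31, adjusted p = 0.0371). The cause was not tested. Precision is limited by 2 samples per wild type group and, for Igf2, by signal near background.

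Counts of genes that passed changed as follows. With age, 965 genes and 1 member passed with the compared groups alone or with 1 slide alone. With DT in ARF-DTR mice, 14 axis genes passed with median scaling. With DT in wild type mice, 28 genes passed with median scaling, 20 with normexp, 26 with probes well above background on all 16 arrays, 0 with the groups alone and 7 with the slide alone, by limma; 3267 genes had an unadjusted p under 0.05 in the fit of all arrays. For the interaction, 2034 genes passed with normexp, 289 without a filter and 813 with trended, robust variances, and 0 axis genes passed with median, quantile or normexp scaling, no filter, the replicate block, trended, robust variances or the groups alone. Between PBS-treated genotypes, 1 member passed with the mean of probes and 2 axis genes with median scaling or with the groups alone. For DT-treated ARF-DTR against wild type PBS, 2 axis genes passed with the replicate block, 1 member with trended, robust variances, 376 genes with the groups alone and 426 with the slide alone, and 0 axis genes with either. Against wild type DT, 126 genes passed with normexp, 3578 without a filter, 96 with the replicate block, 6 with the groups alone and 16 with the slide alone; 1 member passed without a filter or with the mean of probes (Igfbp3, whose second probe is near background), and 0 axis genes with median scaling, the groups alone or the slide alone.

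Leaving out 1 sample at a time gave these ranges of genes, members and axis genes that passed: age 927 to 1786, 2 to 3 and 4 to 5; DT in ARF-DTR 5386 to 7771, 2 to 3 and 5 to 8; DT in wild type 78 to 233, 0 to 1 and 0 to 1. The interaction gave 227 to 1110, 0 to 1 and 0 to 1. DT-treated against 2-month gave 6045 to 8366, 4 to 5 and 12 to 14. PBS-treated genotypes gave 2324 to 5782, 2 to 2 and 1 to 4. DT-treated ARF-DTR gave 205 to 1262, 0 to 1 and 0 to 3 against wild type PBS, and 85 to 300, 0 to 0 and 0 to 1 against wild type DT. The arrays whose loss moved a count of genes by over 1.5 times were, with age, 2-month replicates 1 (933), 2 (927) and 4 (1000) and PBS replicates 3 (1016) and 4 (949); with DT in wild type, each PBS (78 and 87) and DT (126 and 233) array; between PBS-treated genotypes, wild type PBS replicates 1 (2324) and 2 (2552). For the interaction they were ARF-DTR PBS replicates 1 (317) and 3 (290), DT replicates 2 (1110), 3 (299) and 4 (242), wild type PBS replicates 1 (274) and 2 (227) and wild type DT replicate 2 (258). Against wild type PBS they were DT replicates 3 (784) and 4 (578) and wild type replicates 1 (205) and 2 (358), and against wild type DT they were DT replicates 2 (97), 3 (89) and 4 (85).

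Deviations of same-numbered samples from their group means correlated from -0.199 to 0.329 (median 0.061), with 7 of 26 pairs over 0.1. For differently numbered samples they correlated from -0.242 to 0.278 (median -0.011), with 8 of 74 pairs over 0.1. In a wild type group of 2 samples the deviations mirror each other, so pairs with these samples are not separate readings. Whether replicate numbers pair the arrays was not tested. With the replicate number as a block, 1486 genes and 2 members passed with age, 7431 and 3 with DT in ARF-DTR, 65 and 0 with DT in wild type, 516 and 1 for the interaction, 7887 and 4 for DT-treated against 2-month, 5647 and 3 between PBS-treated genotypes (Igfbp3 added, 0.44, adjusted p = 0.0396), 954 and 0 against wild type PBS and 96 and 0 against wild type DT. A random slide block was not used as an alternative, since its estimated correlation was 0. Each group lies on 1 slide, so this estimate does not measure a slide effect.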
